A study of Homo sapiens with 9 samples.

Results

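The genes described here are 7 metallothioneins (MT1E, MT1F, MT1G, MT1H, MT1M, MT1X and MT2A) and MTF1, the metal-responsive transcription factor, in Huh7, a cell line derived from a human liver cancer. They were taken by gene symbol, and all 8 were among the 27800 symbols of the deposited table. RNA was measured by sequencing of total RNA in 9 libraries, 3 from cells given 0.5 uM JQ1 for 48 h, 3 from cells given 5 uM FIDAS-5 for 48 h and 3 from cells given vehicle. JQ1 blocks the acetyl-lysine pockets of BET proteins and so releases them from chromatin, and FIDAS-5 inhibits MAT2A, the enzyme that makes S-adenosylmethionine in dividing liver cells. All groups shared the same line and medium, and each compound was given at 1 dose. For vehicle the labels give no time of exposure. Nothing in the labels tells if the 3 libraries of a group were grown apart. The p-values below therefore reflect library-to-library spread that could be purely technical.

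Metallothioneins are small proteins rich in cysteine that bind zinc, copper and cadmium through clusters of thiolate groups. They buffer zinc inside the cell, take up toxic metals and scavenge oxidants, and the liver is one of their main sites of synthesis. MTF1 senses free zinc through its zinc fingers, moves to the nucleus and binds short metal response elements (MREs) before the start sites of metallothionein genes and of SLC30A1, which encodes the zinc exporter of the plasma membrane. Glucocorticoids, oxidants and cytokines also raise metallothionein transcription.

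The 7 metallothionein genes lie within 75.6 kb of chromosome 16, from 56608584 to 56684196 (RefSeq, GRCh38.p14; the submitters' processing notes name hg38). MT2A (56608584 to 56609497) comes first, followed by MT1E (56625781 to 56627112), MT1M (56632659 to 56633981), MT1F (56657959 to 56659303), MT1G (56666730 to 56668065), MT1H (56669814 to 56671129) and MT1X (56682470 to 56684196). MTF1 lies on chromosome 1 (37809574 to 37859592). RefSeq promoter sequences were at hand for 4 of the 8 genes: MT2A, MT1X, MT1H and MTF1. The 250 bases before each start site are printed to show where the MRE core, the letters that MTF1 binds, was present or absent. These genes differed widely in level. Capitals mark matches to the 7-letter core TGCACNC or TGCGCNC on either strand, and the sequences run 5′ to 3′ along the gene.
MT2A, chr16:56608334-56608583, plus strand: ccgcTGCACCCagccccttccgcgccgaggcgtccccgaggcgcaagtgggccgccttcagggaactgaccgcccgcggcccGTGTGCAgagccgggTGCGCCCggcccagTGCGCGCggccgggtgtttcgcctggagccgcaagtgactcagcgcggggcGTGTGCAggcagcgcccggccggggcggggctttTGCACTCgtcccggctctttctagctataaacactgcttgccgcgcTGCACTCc
MT1X, chr16:56682220-56682469, plus strand: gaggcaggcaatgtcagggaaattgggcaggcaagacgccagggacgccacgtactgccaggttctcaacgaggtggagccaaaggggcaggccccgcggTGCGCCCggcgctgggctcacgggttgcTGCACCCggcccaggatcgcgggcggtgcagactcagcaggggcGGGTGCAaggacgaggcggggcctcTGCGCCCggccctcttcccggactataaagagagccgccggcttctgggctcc
MT1H, chr16:56669564-56669813, plus strand: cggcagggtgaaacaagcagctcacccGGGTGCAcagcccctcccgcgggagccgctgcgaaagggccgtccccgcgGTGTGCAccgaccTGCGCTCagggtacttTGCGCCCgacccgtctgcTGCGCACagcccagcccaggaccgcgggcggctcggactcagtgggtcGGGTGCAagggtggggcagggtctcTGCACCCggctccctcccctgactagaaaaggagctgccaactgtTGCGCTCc
MTF1, chr1:37859593-37859842, minus strand: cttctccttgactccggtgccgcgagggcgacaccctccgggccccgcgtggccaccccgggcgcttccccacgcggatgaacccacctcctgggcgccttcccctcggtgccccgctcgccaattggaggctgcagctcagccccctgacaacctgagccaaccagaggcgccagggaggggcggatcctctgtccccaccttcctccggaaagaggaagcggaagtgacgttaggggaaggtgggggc

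MT2A held 7 matches, MT1X 4 and MT1H 8, and MTF1 held 0. At least 1 match was present in 24.8% of 35116 RefSeq promoters of the same length, and at least 4 in 0.370%. In MT2A and MT1H the match nearest to the start site began 8 bases before it, and in MT1X 53 bases before it. MT2A and MT1X also held 1 TATAAA each on the sense strand, which 6.80% of promoters held, and MT1H and MTF1 held 0. A match is a run of letters, not a measured binding site.

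The deposited values were TPM (transcript levels already divided by transcript length and scaled to a fixed total per library), which keep no read counts, so the depth behind each value is unknown. In each library 27.6 to 34.0% of all TPM belonged to protein-coding genes. The 10 hepatocyte markers examined summed to 9450 to 14300 TPM with JQ1, 4030 to 6160 TPM with FIDAS-5 and 5040 to 6060 TPM with vehicle, and each reached 1 TPM. At an adjusted p under 0.05 by limma, 7 of these markers were higher and 2 lower with JQ1 than with vehicle. Of all tested genes 19.0% were higher and 19.4% lower. With FIDAS-5, 2 markers were higher and 0 lower, against 12.6% and 7.60% of all tested genes. Of the 8 leukocyte markers 4 never reached 1 TPM, and the list summed to 19.3 to 28.2 TPM with JQ1, 253 to 312 TPM with FIDAS-5 and 115 to 141 TPM with vehicle, mostly from LYZ. HBB was listed at 0 throughout. Of the 8 fibroblast and endothelial markers 6 never reached 1 TPM (sums of 2.84 to 3.39, 16.9 to 17.9 and 7.91 to 10.5 TPM in the same order), with CDH5 at 0. The 6 cholangiocyte markers summed to 31.9 to 48.6, 24.4 to 39.7 and 26.4 to 32.4 TPM, with KRT7 at 0. The part of these marker changes in the results below was not tested.

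Metallothionein RNA was higher with JQ1 than with vehicle in 5 of the 7 members that could be tested, led by MT2A and MT1X, while the RNA of MTF1 was not. MT2A had 373, 389 and 404 TPM in the JQ1 libraries and 56.6, 27.5 and 70.3 TPM in the vehicle libraries. Every JQ1 library lay above every vehicle library, and the means, 389 ± 15.3 and 51.5 ± 21.8 TPM (SD, n = 3), differed 7.55-fold. The log2 fold change was 2.99 (SE 0.37, adjusted p = 0.000389 by limma), the 13th highest of 13573 genes tested. In bulk RNA a larger share of expressing cells and more RNA per cell cannot be told apart.

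MT1X, the last gene of the cluster, had 162, 158 and 145 TPM with JQ1 and 35.9, 13.5 and 42.8 TPM with vehicle. The groups did not overlap, and the log2 fold change was 2.44 (SE 0.38, adjusted p = 0.00127), the 44th highest of all genes tested. MT1G had 51.5, 49.2 and 48.4 TPM with JQ1 and 19.2, 10.7 and 21.6 TPM with vehicle (log2 fold change 1.53, SE 0.32, adjusted p = 0.00525 by limma). The SD among the JQ1 libraries was 1.62 TPM, against 5.73 TPM among the vehicle libraries, and the groups did not overlap. MT1F had 168, 151 and 141 TPM with JQ1 and 65.5, 43.4 and 73.7 TPM with vehicle (log2 fold change 1.35, SE 0.28, adjusted p = 0.00541 by limma). MT1E, the most abundant metallothionein of vehicle cells, had 202, 203 and 174 TPM with JQ1 and 77.7, 57.3 and 101 TPM with vehicle (log2 fold change 1.32, SE 0.27, adjusted p = 0.00528 by limma).

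In all, 5 of 7 tested members rose with JQ1 and none fell, where 38.5% of all tested genes changed, 19.0% higher and 19.4% lower. The median log2 fold change was 1.35 over the members tested and -0.01 over all genes. The 5 calls held under each of the 20 other settings tried, with log2 fold changes of 2.60 to 3.26 for MT2A, 1.94 to 2.75 for MT1X and 1.07 to 1.52 for MT1E. JQ1 libraries stood clear above vehicle libraries in the same 5 genes, and also in MT1H, which was not tested, and in no member did they stand clear below. Of all tested genes 24.5% stood clear above and 26.2% clear below.

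**Figure D1:**
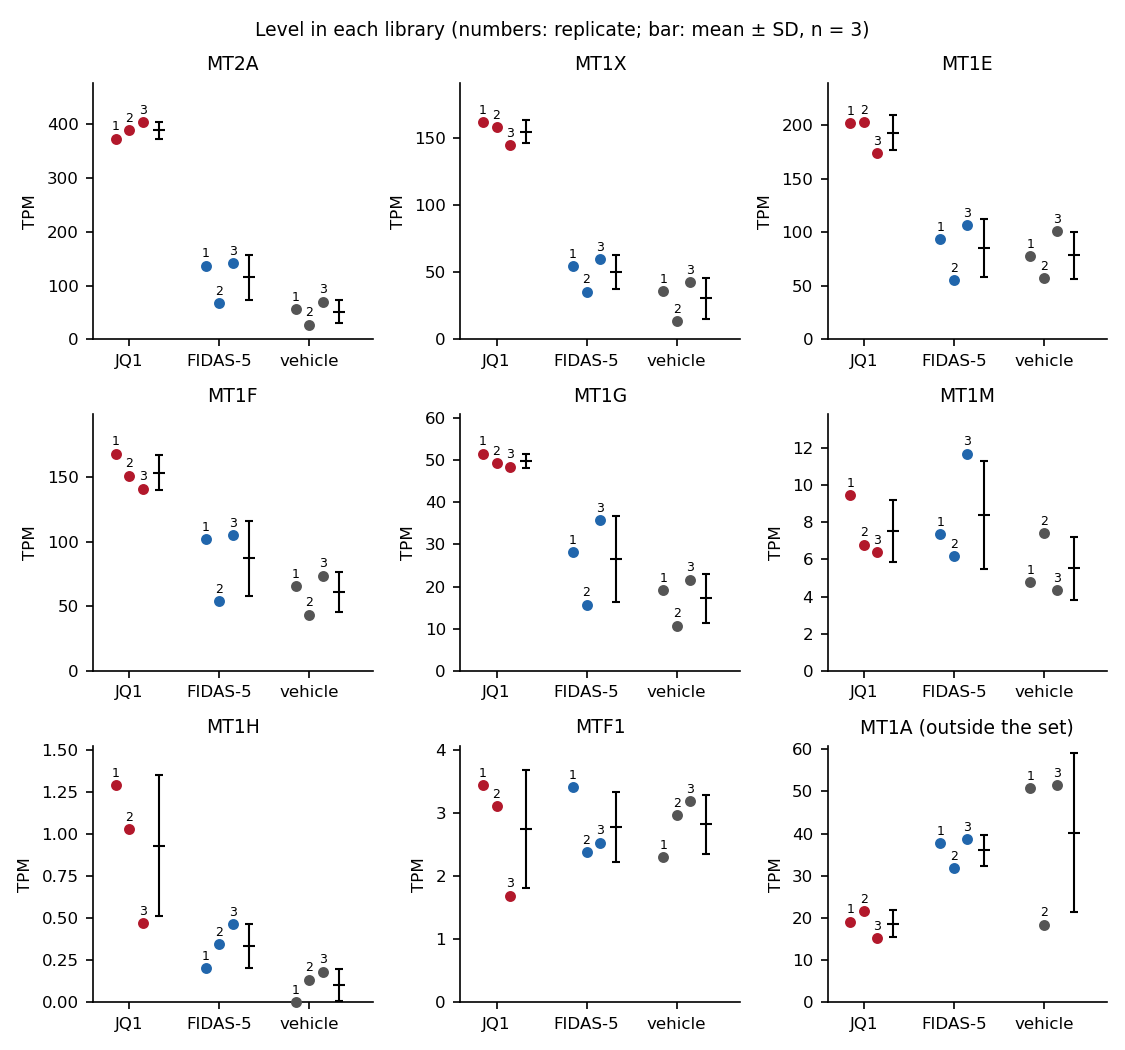
TPM of each member, and of MT1A, which lies outside the set, in the 3 JQ1, 3 FIDAS-5 and 3 vehicle libraries (points, numbered by replicate), with the group mean ± SD beside them. MT2A, MT1X, MT1E, MT1F and MT1G sat highest in all 3 JQ1 libraries, and replicate 2 was the lowest library for these genes in both other groups.

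With FIDAS-5 the metallothioneins had smaller differences from vehicle, and none passed the test, where 20.2% of all tested genes changed, 12.6% higher and 7.60% lower. No member's FIDAS-5 libraries stood clear above or below all vehicle libraries except those of MT1H, which stood clear above, against 20.9% and 18.4% of tested genes. MT2A had 137, 67.1 and 142 TPM with FIDAS-5 and 56.6, 27.5 and 70.3 TPM with vehicle. The ranges overlapped by the second library of the FIDAS-5 group, which lay below the third vehicle library. The means were 115 ± 41.9 and 51.5 ± 21.8 TPM, 2.24-fold apart. On the log2 scale the difference was 1.17 (SE 0.37, adjusted p = 0.0553 by limma). This value lies at the threshold: MT2A was called higher in 8 of 20 other settings (adjusted p = 0.0178 to 0.0491), among them every rescaling of the libraries, and not in the other 12 (log2 fold changes of 0.78 to 1.52 over all 20). MT1X had 54.5, 35.6 and 59.7 TPM with FIDAS-5 and 35.9, 13.5 and 42.8 TPM with vehicle (log2 fold change 0.80, SE 0.38, adjusted p = 0.179 by limma).

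MT1G, MT1M and MT1F had log2 fold changes of 0.58, 0.52 and 0.48 with FIDAS-5 (adjusted p = 0.240, 0.201 and 0.269 by limma), and MT1E had 0.10 (adjusted p = 0.831). MT1E was at 93.8, 55.4 and 107 TPM with FIDAS-5 and 77.7, 57.3 and 101 TPM with vehicle, ranges that nearly coincide. The 95% interval of its log2 fold change was -0.52 to 0.72, and that of MT1X was -0.06 to 1.66, so the spread between libraries left room for changes of that size in either gene. At an unadjusted p under 0.05 MT2A alone of the 7 tested members passed.

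Replicate 2 was the lowest FIDAS-5 library for 6 of the 7 metallothioneins and the lowest vehicle library for 5 of 7. It was the lowest library for 45.1% of all tested genes with FIDAS-5 and for 41.1% with vehicle. For MT2A it had 67.1 TPM with FIDAS-5, where the other libraries averaged 140.0 TPM, and 27.5 TPM with vehicle, where the others averaged 63.4 TPM. Set side by side by replicate number, MT2A was 2.43-, 2.44- and 2.01-fold higher with FIDAS-5 than with vehicle. MT1G was 1.47-, 1.46- and 1.65-fold higher. These ratios were less even for MT1X (1.52, 2.64 and 1.4) and MT1M (1.54, 0.831 and 2.7). For MT1F they were 1.55, 1.24 and 1.43, and for MT1E 1.21, 0.967 and 1.06. The labels do not say that a number marks a shared batch. With JQ1, replicate 2 was the lowest library for 0 of 7 metallothioneins and for 12.2% of all tested genes. Without replicate 2 of every group, a setting chosen after the data were seen, 5 members were called with JQ1, and MT2A alone with FIDAS-5 (log2 fold change 1.13, adjusted p = 0.0289).

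The direct comparison asks whether the metallothioneins were higher with JQ1 than with FIDAS-5. The doses differ and the compounds are unrelated, so the comparison is of these libraries, not of matched exposures. MT2A was higher with JQ1 by 1.82 on the log2 scale (SE 0.37, adjusted p = 0.00527), MT1X by 1.64 (SE 0.38, adjusted p = 0.00975) and MT1E by 1.22 (SE 0.27, adjusted p = 0.00845). MT1G was higher by 0.95 (adjusted p = 0.0447) and MT1F by 0.87 (adjusted p = 0.0404). In these 5 genes all JQ1 libraries lay above all FIDAS-5 libraries. The count was 5 of 7 tested members higher and none lower, where 34.8% of all tested genes differed, 16.4% higher and 18.5% lower. Of all tested genes 22.7% had JQ1 libraries clear above the FIDAS-5 libraries and 25.0% clear below. The calls of MT1F and MT1G were lost in 8 and 10 of 20 other settings, with adjusted p of up to 0.111 and 0.138, both without FIDAS-5 replicate 2.

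**Figure D2:**
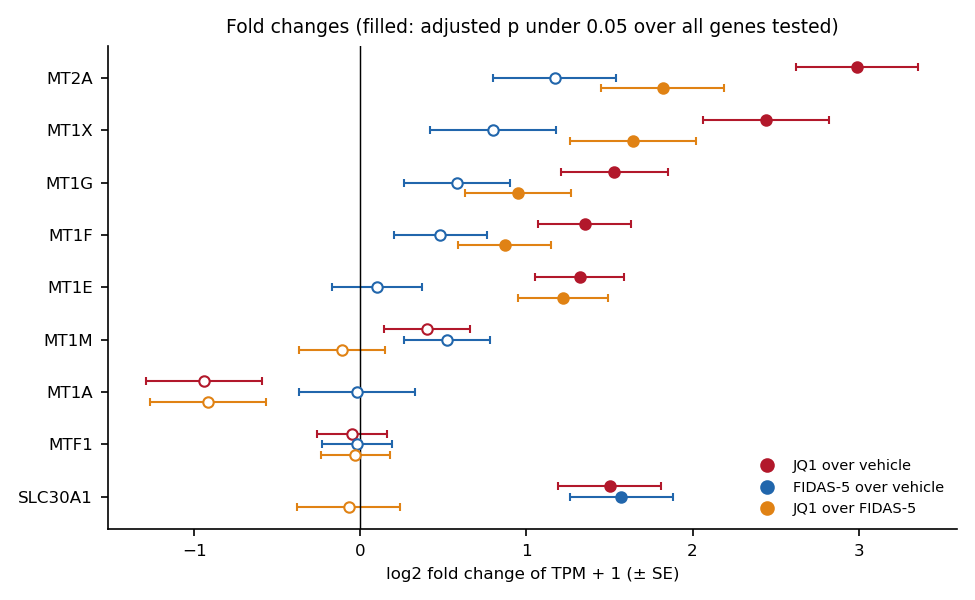
Log2 fold change of TPM + 1 with its standard error for JQ1 over vehicle, FIDAS-5 over vehicle and JQ1 over FIDAS-5. Filled points passed an adjusted p of 0.05 over all genes tested; MT2A reached 2.99 with JQ1 and 1.17 with FIDAS-5, MTF1 stayed near 0 in all 3, and the zinc exporter SLC30A1 was raised by 1.5 with JQ1 and 1.57 with FIDAS-5.

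The makeup of the RNA of the 7 metallothioneins of the set also differed between the groups. Summed over the 7 genes, it came to 968, 958 and 919 TPM with JQ1, 423, 234 and 462 TPM with FIDAS-5 and 260, 160 and 314 TPM with vehicle. The mean sum with JQ1 was 3.88 times that with vehicle. MT1A, which lies outside the set, is in neither the sums nor the shares. It averaged 18.7 TPM with JQ1, 36.1 TPM with FIDAS-5 and 40.3 TPM with vehicle, and exceeded MT1X in each vehicle library. MT2A made up 38.6 to 44.0% of the sum with JQ1, 28.7 to 32.5% with FIDAS-5 and 17.2 to 22.4% with vehicle, so that no group overlapped another. MT1E made up 18.9 to 21.2% with JQ1, 22.2 to 23.6% with FIDAS-5 and 29.9 to 35.8% with vehicle, in the opposite order and again without overlap. The shares of the other members, MT1F, MT1X, MT1G, MT1M and MT1H, overlapped between FIDAS-5 and vehicle. MT1F made up 15.3 to 17.4% with JQ1, 22.8 to 24.0% with FIDAS-5 and 23.5 to 27.2% with vehicle. For MT1X these shares were 15.8 to 16.7%, 12.9 to 15.2% and 8.42 to 13.8%.

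In all 3 vehicle libraries the order of levels among the 7 metallothioneins of the set was MT1E, MT1F, MT2A, MT1X, MT1G, MT1M and MT1H. The group means of the first 3 were 78.7 ± 22.0, 60.9 ± 15.7 and 51.5 ± 21.8 TPM. Their ranges over the vehicle libraries overlapped, while the order within each library was the same. In all 3 FIDAS-5 libraries and all 3 JQ1 libraries MT2A came first. With JQ1 its 389 ± 15.3 TPM stood clear of MT1E at 193 ± 16.8 TPM, while MT1X at 155 ± 8.69 and MT1F at 153 ± 13.8 TPM did not differ beyond their spread and changed places between libraries. The ratio of MT2A to MT1E, which is free of the scaling of a library, was 1.84 to 2.32 with JQ1, 1.21 to 1.47 with FIDAS-5 and 0.481 to 0.728 with vehicle. The ratio of MT1F to MT1E was 0.744 to 0.832 with JQ1, 0.974 to 1.08 with FIDAS-5 and 0.729 to 0.843 with vehicle, so the JQ1 and vehicle ranges overlapped and the FIDAS-5 range lay above both. These shares were given no test because they are built from the members.

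**Figure D3:**
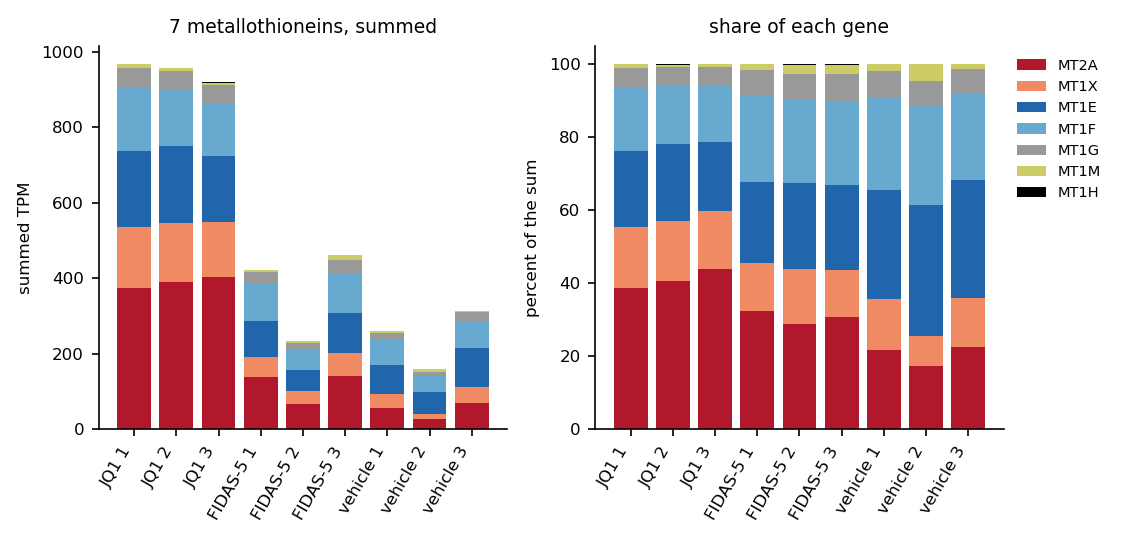
Summed TPM of the 7 metallothioneins in each library (left) and the percent of that sum held by each gene (right). The 3 JQ1 libraries summed to 919 to 968 TPM, and the share of MT2A was 38.6 to 44.0% with JQ1, 28.7 to 32.5% with FIDAS-5 and 17.2 to 22.4% with vehicle.

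The remaining members of the family in the set, MT1M and MT1H, were low. MT1M had 9.46, 6.80 and 6.38 TPM with JQ1, 7.36, 6.17 and 11.7 TPM with FIDAS-5 and 4.78, 7.43 and 4.34 TPM with vehicle. The 3 ranges overlapped, and its log2 fold change with JQ1 was 0.40 (95% interval -0.18 to 0.99, adjusted p = 0.252 by limma). MT1H had 1.29, 1.03 and 0.470 TPM with JQ1, 0.202, 0.347 and 0.463 TPM with FIDAS-5, and was listed at 0, 0.135 and 0.183 TPM with vehicle. It did not reach 1 TPM in 3 libraries and was therefore not tested. Without the filter its log2 fold change with JQ1 was 0.78 (SE 0.17, adjusted p = 0.0134).

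MTF1 was at 3.44, 3.11 and 1.69 TPM with JQ1, 3.41, 2.38 and 2.53 TPM with FIDAS-5 and 2.30, 2.96 and 3.19 TPM with vehicle. The group means, 2.75 ± 0.929, 2.77 ± 0.557 and 2.81 ± 0.463 TPM, differed by less than the spread within any group. Its log2 fold change was -0.05 with JQ1 (95% interval -0.53 to 0.42, adjusted p = 0.871) and -0.02 with FIDAS-5 (95% interval -0.50 to 0.46, adjusted p = 0.958), by limma. The FIDAS-5 value turned sign with 2 of 3 rescalings (0.00 and 0.02), and the JQ1 value kept its sign with all 3. RNA level says nothing of where the MTF1 protein was or whether it was bound to zinc.

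Of the 13 other metallothionein genes and pseudogenes looked up, 9 were listed and 3 could be tested, and the log2 fold change of MT1A with JQ1 had the opposite sign to that of MT2A. MT1A, between MT1M and MT1F on chromosome 16 (56638666 to 56640087), had 19.1, 21.7 and 15.3 TPM with JQ1, 37.7, 31.8 and 38.7 TPM with FIDAS-5 and 50.8, 18.4 and 51.5 TPM with vehicle. The JQ1 libraries lay below all FIDAS-5 libraries but overlapped the second vehicle library. The log2 fold change with JQ1 was -0.94 (SE 0.35, adjusted p = 0.0625 by limma). It was called lower in 6 of 20 other settings, among them without vehicle replicate 2 (-1.42, adjusted p = 0.000926). The ratio of MT2A to MT1A was 17.9 to 26.3 with JQ1, 2.11 to 3.66 with FIDAS-5 and 1.11 to 1.49 with vehicle. The pseudogene MT1L had log2 fold changes of -0.56 with JQ1 and 0.31 with FIDAS-5 against vehicle (adjusted p = 0.150 and 0.478), the first -0.30 to -0.92 with 1 library left out and called lower without JQ1 replicate 1 (adjusted p = 0.00477). The pseudogene MT1DP had 0.78 and 0.14 (adjusted p = 0.0616 and 0.782 by limma), the first called higher in 5 of 18 other settings. MT1L was lower with JQ1 than with FIDAS-5 (-0.87, adjusted p = 0.0403 by limma), a call lost in 11 of 19 other settings. MT3, the form of the brain, MT4, the form of stratified epithelia, and MT1HL1 were listed at 0 in every library.

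Salmon divides reads that match several transcripts among them, and metallothionein genes are close copies of each other. Of the 31-base words in each gene's transcripts (GENCODE release 29), 92.8% were found in no other gene for MT2A, 96.8% for MT1F, 84.4% for MT1E, 81.1% for MT1A, 80.2% for MT1X, 76.7% for MT1G, 75.9% for MT1M and 72.3% for MT1H. MT1H shared 115 such words with MT1G, its neighbour, and MT1X shared 292 with AC026461.1. By this measure single levels of the MT1 genes other than MT1F, above all of the low MT1H and MT1M, are less certain than that of MT2A.

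Of 7 tested SLC30 family genes, zinc exporters apart from SLC30A10, 3 rose and none fell with JQ1, against 19.0% and 19.4% of all tested genes. With FIDAS-5, 1 rose and none fell, which is near the 12.6% and 7.60% of all tested genes. SLC30A1, the MTF1 target that pumps zinc out of the cell, had 23.5, 18.6 and 12.1 TPM with JQ1, 25.9, 15.2 and 15.8 TPM with FIDAS-5 and 6.74, 3.50 and 6.97 TPM with vehicle. Both treated groups lay above vehicle and overlapped each other. The log2 fold change was 1.5 with JQ1 (SE 0.31, adjusted p = 0.00554) and 1.57 with FIDAS-5 (SE 0.31, adjusted p = 0.00843), and between the compounds it was -0.07 (95% interval -0.78 to 0.64). Both calls were lost without replicate 2 of every group (adjusted p = 0.0912 and 0.0953). The 250 bases before its start held 1 MRE match and those before SLC30A10 held 0, where 24.8% of promoters held at least 1. SLC30A10, a relative that exports manganese, had 44.2, 37.6 and 16 TPM with JQ1, 17.5, 10.9 and 8.07 TPM with FIDAS-5 and 7.73, 5.30 and 7.15 TPM with vehicle. It rose with JQ1 (log2 fold change 2.02, adjusted p = 0.00337 by limma, 0.0986 without replicate 2 of every group), and its log2 fold change with FIDAS-5 was 0.72 (adjusted p = 0.227, called in 1 of 20 other settings). The third exporter that rose with JQ1 was SLC30A4 (0.94, adjusted p = 0.00175 by limma).

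Of 11 tested zinc importers of the SLC39 family, 2 rose and 2 fell with JQ1, which is near the 19.0% and 19.4% of all tested genes. With FIDAS-5, 4 rose and none fell, against 12.6% and 7.60%. SLC39A5, an importer of the liver and gut, had 12.6, 10.7 and 12.7 TPM with FIDAS-5 and 3.42, 3.33 and 3.90 TPM with vehicle (log2 fold change 1.51, adjusted p = 0.000112), and its log2 fold change with JQ1 was 0.07 (adjusted p = 0.694). SLC39A8, which also carries manganese and cadmium, fell to 1.72, 2.20 and 0.957 TPM with JQ1, against 4.33, 4.07 and 4.03 TPM with vehicle (log2 fold change -1.0, adjusted p = 0.00473 by limma). SLC39A1 fell with JQ1 (-0.53, adjusted p = 0.00701 by limma) and rose with FIDAS-5 (0.54, adjusted p = 0.0114). The fall was not called without replicate 2 of every group (adjusted p = 0.0696), and the rise was lost there and without vehicle replicate 3 (adjusted p = 0.0802 and 0.0569). SLC39A14, the most abundant of the family at 109 ± 31.9 TPM with JQ1, 165 ± 30.7 TPM with FIDAS-5 and 132 ± 10.3 TPM with vehicle, was not called in either comparison.

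Of 12 tested copper genes 3 rose and 2 fell with JQ1, against 19.0% and 19.4% of all tested genes, and 2 rose and none fell with FIDAS-5, against 12.6% and 7.60%. These counts lie near the shares of all genes. ATP7B, the copper pump of hepatocytes, had 22.7, 20.9 and 19.1 TPM with JQ1 and 7.86, 8.21 and 6.91 TPM with vehicle (log2 fold change 1.34, adjusted p = 0.000104 by limma), and its log2 fold change with FIDAS-5 was 0.30 (adjusted p = 0.141, called in 2 of 20 other settings). CCS, which loads copper into superoxide dismutase, rose by 0.90 with JQ1 and by 0.79 with FIDAS-5, a FIDAS-5 call that was lost without replicate 2 of every group (adjusted p = 0.0547). CP, the copper-carrying ferroxidase of plasma, averaged 0.235 TPM with JQ1 and 3.21 TPM with vehicle (log2 fold change -1.76, adjusted p = 0.00105 by limma).

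Of 11 tested genes that answer to metals and misfolded proteins, 2 rose and 4 fell with JQ1, against 19.0% and 19.4% of all tested genes, and 2 rose and none fell with FIDAS-5, against 12.6% and 7.60%. HMOX1, the heme-degrading enzyme that cadmium and oxidants induce, had 42.4, 43.0 and 44.6 TPM with JQ1, 36.1, 31.1 and 30.8 TPM with FIDAS-5 and 18.7, 16.4 and 16.1 TPM with vehicle. Both groups stood above vehicle (log2 fold changes 1.30 and 0.90, adjusted p = 8.81e-05 and 0.00121 by limma). The inducible HSP70 genes HSPA1A and HSPA1B, near-identical copies, were not called with either compound. The small heat shock protein gene HSPB1 fell with JQ1 (-2.09, adjusted p = 1.04e-05).

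Of 14 tested genes of glutathione and thiol metabolism, whose products share the thiol chemistry of metallothioneins, 3 rose and 4 fell with JQ1, against 19.0% and 19.4% of all tested genes, and 4 rose and 1 fell with FIDAS-5, against 12.6% and 7.60%. The glutathione peroxidase gene GPX2 averaged 4.67 ± 0.847 TPM with JQ1, 173 ± 47.5 TPM with FIDAS-5 and 62.8 ± 4.24 TPM with vehicle. It fell with JQ1 (log2 fold change -3.50) and rose with FIDAS-5 (1.41, adjusted p = 0.00254). SLC7A11, the cystine importer that supplies glutathione synthesis, fell with JQ1 (-1.86, adjusted p = 0.000479) and GSS, glutathione synthetase, rose (1.08, adjusted p = 0.000151). SRXN1, which repairs oxidised peroxiredoxins, rose with FIDAS-5 by 1.15 (adjusted p = 0.00287).

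Glucocorticoids induce MT2A through their receptor. The receptor gene NR3C1 averaged 7.36 TPM with JQ1, 4.17 TPM with FIDAS-5 and 8.03 TPM with vehicle, with log2 fold changes of -0.14 (adjusted p = 0.672) and -0.83 (adjusted p = 0.0403 by limma) against vehicle. The second call was lost in 8 of 20 other settings, with adjusted p of up to 0.285 without replicate 2 of every group. Of 11 tested genes of the receptor and its targets 1 rose and 4 fell with JQ1, against 19.0% and 19.4% of all tested genes, and 3 rose and 3 fell with FIDAS-5, against 12.6% and 7.60%. The target FKBP5, a chaperone of the receptor, fell to 3.37, 2.52 and 2.09 TPM with FIDAS-5, against 6.26, 6.77 and 7.08 TPM with vehicle (log2 fold change -1.09, adjusted p = 0.0233 by limma), and ZBTB16 fell too (-0.53, adjusted p = 0.0155). The FKBP5 call was lost in 5 of 20 other settings, with adjusted p of up to 0.217. The ZBTB16 call was lost without FIDAS-5 replicate 2 and without replicate 2 of every group (adjusted p = 0.0502 and 0.121). TSC22D3, a widely used target, averaged 3.81 TPM with JQ1, 12.5 TPM with FIDAS-5 and 6.60 TPM with vehicle (log2 fold changes -0.65 and 0.83 against vehicle, both called). DUSP1 was higher in both groups (0.98 and 0.68). CEBPD, with the smallest adjusted p of the list for FIDAS-5, rose by 1.19 (adjusted p = 0.000488 by limma). That call held in all 20 other settings. Without replicate 2 of every group the JQ1 call of TSC22D3 and the FIDAS-5 call of DUSP1 were lost (adjusted p = 0.0595 and 0.0536). Of 9 other tested factors with known roles at these promoters or with their activators, 1 rose and 1 fell with JQ1, against 19.0% and 19.4% of all tested genes, and 1 rose and 2 fell with FIDAS-5, against 12.6% and 7.60%. STAT3, which carries interleukin signals to metallothionein genes, rose by 1.13 with JQ1 and 0.91 with FIDAS-5 (adjusted p = 0.000233 and 0.00148 by limma). KEAP1, which holds NRF2 in check, fell with JQ1 (-0.50, adjusted p = 0.0206), and SP1 and CTCF fell with FIDAS-5 (-0.88 and -0.76, adjusted p = 0.0174 and 0.0204 by limma). These 3 calls were lost in 3, 5 and 4 of 20 other settings. NFE2L2, which encodes NRF2, was not called with either compound.

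Genes flanking the cluster were examined within 500 kb of its ends. Of 8 tested neighbours 3 rose and 2 fell with JQ1, against 19.0% and 19.4% of all tested genes, and 3 rose and 1 fell with FIDAS-5, against 12.6% and 7.60%. NUP93, the nucleoporin gene next to MT1X, was lower in both groups, with log2 fold changes of -0.62 with JQ1 and -0.65 with FIDAS-5 (adjusted p = 0.00353 and 0.00536 by limma, the FIDAS-5 call not without replicate 2 of every group, 0.0838). HERPUD1, a gene of the unfolded protein response, had 16.9, 18.4 and 17.6 TPM with JQ1, 24.1, 18.6 and 23.9 TPM with FIDAS-5 and 11.6, 7.81 and 10.1 TPM with vehicle. Both treated groups stood clear above vehicle, by 0.80 with JQ1 and 1.11 with FIDAS-5 on the log2 scale (adjusted p = 0.00503 and 0.00208 by limma). The median over the neighbours was -0.17 with JQ1 and 0.04 with FIDAS-5.

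**Figure D4:**
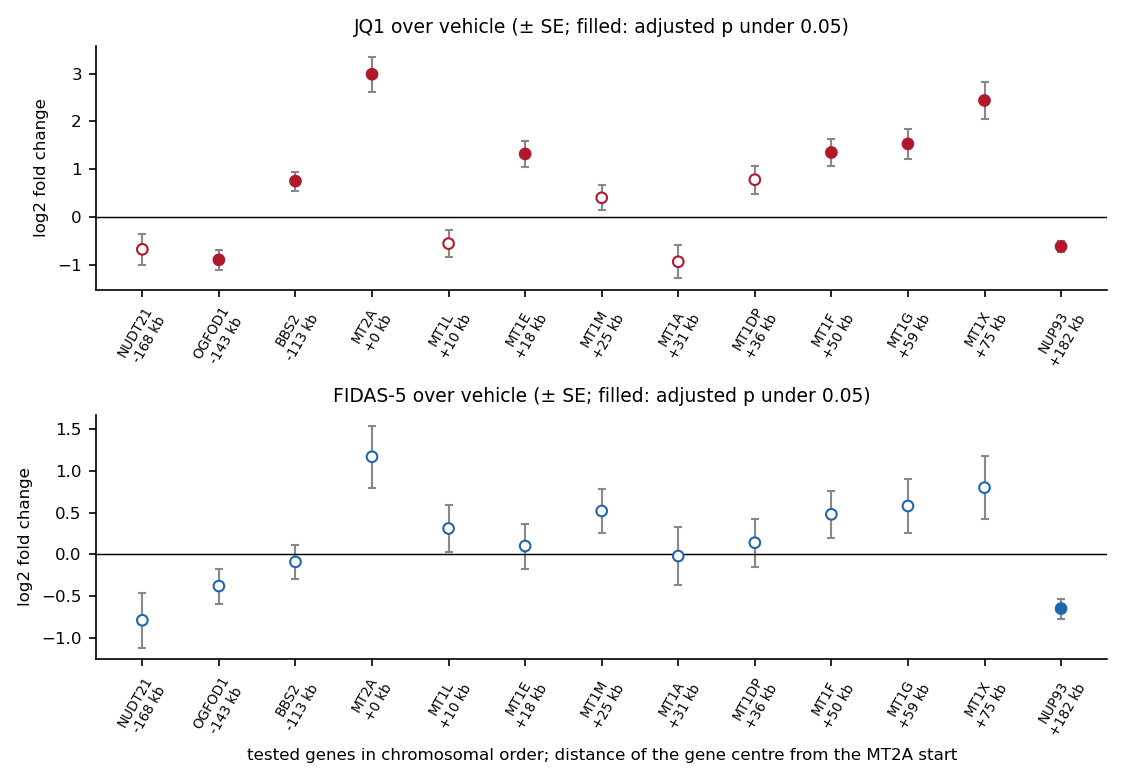
Log2 fold change with its standard error for the tested genes of the metallothionein cluster and of neighbours centred within 200 kb of the MT2A start, in chromosomal order, with the distance of each gene's centre from that start; the upper panel shows JQ1 over vehicle and the lower FIDAS-5 over vehicle. The ends of the cluster, MT2A at 2.99 and MT1X at 2.44, had the highest values with JQ1, and MT1A within it had -0.94.

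Across the 9 libraries, MT2A ran closely with MT1X, MT1G, MT1F and MT1E (Pearson 0.99, 0.98, 0.97 and 0.93 on log2(TPM + 1)), less with MT1M (0.34), and not with MTF1 (-0.05) or MT1A (-0.46). Outside the family the genes most like MT2A were SLC12A4, TBX2, FAM43B, CAPN5 and PDX1, all at 0.987 to 0.989. SLC12A4 averaged 18.8 TPM with JQ1, 9.55 TPM with FIDAS-5 and 5.53 TPM with vehicle. The genes most like MTF1 were PHF14, ZNF597, KIF3B, B3GALNT2 and TMEM184C, at 0.961 to 0.979, and PHF14 averaged 6.61, 6.76 and 7.02 TPM in the same order. These are descriptions over 9 points that share their groups and libraries, chosen as the highest of all genes tested.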

How the data were processed

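The deposited values were TPM per gene symbol, 1 column per library, made by the authors with Salmon against hg38, per the submitters' processing notes; its version, annotation and options are not given in the sources used here. Total RNA came from Qiagen RNeasy kits and a company made the libraries, per the labels. Library columns were matched to sample titles. Values were analysed as log2(TPM + 1), so fold changes of weakly expressed genes are understated. The 13573 genes that reached 1 TPM in 3 or more of the 9 libraries were fitted with a mean per group in limma 3.58.1 (R 4.3.3; moderated with 2.86 prior beside 6 residual degrees of freedom, no trend). Tests were two-sided, with Benjamini-Hochberg adjustment over all genes tested and a threshold of 0.05. The fit was tested on simulated data. Some genes of the lists and flanks are counted but not reported here by name. Motifs were searched in RefSeq promoters in Python 3.11.15, and figures were drawn with matplotlib 3.10.9. The members, the lists of related genes and the rule for naming genes were chosen with earlier results of these data known. From each list up to 4 genes by adjusted p, and others to describe it, were named, plus genes within 500 kb of the cluster and the 5 genes most like MT2A and MTF1. Alternatives were pseudocount 0.1, no filter, a 5 TPM filter, 3 rescalings, only the 6 libraries compared, a replicate block, a moderation trend and leaving out each library. Removal of a GC trend and leaving out replicate 2 of every group were chosen after the data were seen.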

Additional observations from a re-analysis of the deposited data

How the results depend on the processing

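Over the 20 other settings the 5 members called with JQ1 against vehicle stayed called in each; the count was 6 without a filter, where MT1H was added. With FIDAS-5 against vehicle the count was 0, and 1 (MT2A) after median-of-ratios or quantile rescaling, over protein-coding genes alone, with the replicate block, the GC trend removed and without replicate 2 of every group, and it ranged from 0 to 1 when 1 library was left out (1 without vehicle replicate 3 or FIDAS-5 replicate 2). The block gave MT2A an adjusted p of 0.0178. Replicate numbers were not shown to pair treated libraries with vehicle libraries. For the same number, deviations from group means correlated at 0.04, 0.16 and 0.01 between FIDAS-5 and vehicle, and at -0.08, 0.03 and 0.00 between JQ1 and vehicle. Between JQ1 and FIDAS-5 they correlated at 0.26, 0.10 and 0.42 for the same number and at -0.35 to 0.18 for unlike numbers. Their Spearman correlation with transcript GC content was -0.51, -0.21 and 0.56 in FIDAS-5 replicates 1 to 3. In JQ1 it was -0.65, -0.34 and 0.64, and in vehicle 0.38, -0.27 and -0.14. Whether JQ1 and FIDAS-5 libraries of a number shared a batch was not tested. Between JQ1 and FIDAS-5 the block left the count at 5. There the count was 3 with a pseudocount of 0.1, without a filter and without replicate 2 of every group, and 3 to 5 when 1 library was left out (3 without vehicle replicate 1, FIDAS-5 replicate 2 or JQ1 replicate 1 or 2), where MT1F and MT1G were lost. Signs turned only in values that were not called. MTF1 (19 settings, since the 5 TPM filter drops it) had 0.04 (JQ1) and 0.08 (FIDAS-5) with the GC trend removed, 0.00 (median-of-ratios) and 0.02 (protein-coding genes alone) for FIDAS-5, 0.09 without replicate 2 of every group, and, with 1 library left out, -0.19 to 0.17 for JQ1, -0.14 to 0.05 for FIDAS-5 and -0.17 to 0.19 between the compounds. MT1A with FIDAS-5 had 0.01 and 0.03 with those scalings and -0.50 to 0.22 with 1 library left out. MT1E with FIDAS-5 ranged from -0.11 to 0.38, MT1M between the compounds from -0.29 to 0.13 and MT1DP with FIDAS-5 from -0.14 to 0.31 with 1 library left out. MT1DP with FIDAS-5 had -0.09 with the GC trend removed and -0.19 without replicate 2 of every group. SLC39A5 with JQ1 had -0.19 and NR3C1 with JQ1 0.01 with the GC trend removed, and with 1 library left out NR3C1 with JQ1 ranged from -0.31 to 0.08 and SLC30A1 between the compounds from -0.28 to 0.18. The cause of these turns was not tested. Over all genes, calls with FIDAS-5 went to 4389 with the GC trend removed, against 2742, and to 1639 and 1640 without vehicle replicate 3 and FIDAS-5 replicate 3; without replicate 2 of every group they came to 2529 of 5219 with JQ1, 912 of 2742 with FIDAS-5 and 2483 of 4726 between the compounds, and the 5 TPM filter gave 2991 in the last. TPM keeps no depth, so low members such as MT1H carry an unknown counting error.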
